A study of Mus musculus with 2 samples.

Results

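Retinoic acid handling was measured through 9 genes in ureters of mouse embryos, by selecting every gene probe on the arrays that carried the name of a dehydrogenase that makes retinoic acid (Aldh1a1, Aldh1a2, Aldh1a3), the retinol transporter Stra6, the intracellular binding proteins Crabp1 and Crabp2, the receptor Rarb, or the degrading enzymes Cyp26a1 and Cyp26b1. All 9 genes were found, with 10 of the 43020 gene spots on each array, and all 9 passed the filter on dim probes that left 23419 genes. The conditional double knockout RNA, called cDKO here, came from Tbx18(cre/+) embryos that were also Tbx2(fl/fl) and Tbx3(fl/fl). Control RNA came from Tbx18(+/+) embryos, which carry no Cre, that were Tbx2(fl/?) and Tbx3(fl/?), with the other allele of each gene not given. The Cre allele of Tbx18 is therefore part of the cDKO genotype and not of the control genotype. All embryos were of the NMRI strain at stage E18.5. Tbx18 is expressed in the mesenchyme around the ureteric epithelium, so Cre acts in that lineage and not in the epithelium itself. The number of embryos behind an RNA is not given, so p-values cannot be read as a spread between embryos. They rest on the spread between these samples shared over all probes, more than on the spread of a gene's own ratios. One array, on which 2 RNAs are hybridised together with different dyes, compared cDKO with control RNA of males and the other cDKO with control RNA of females, with the dyes exchanged, which gives n = 2 ratios per gene. Sex, dye orientation and replicate number cannot be told apart.

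Retinoic acid is a small lipid signal made from vitamin A. Retinol enters cells through STRA6, is oxidised to retinal, and is turned into retinoic acid by the ALDH1A enzymes. CRABP proteins carry retinoic acid in the cytoplasm, RAR and RXR receptors bind it in the nucleus, and CYP26 enzymes destroy it, so that the local level rests on synthesis and breakdown. Several genes of the pathway, Rarb and Cyp26a1 among them, are textbook targets of the signal through a repeated receptor motif close to their start sites. In the urinary tract the pathway is known for its role in stromal signalling to the ureteric epithelium and in the development of the urothelium and the ureteric mesenchyme.

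The receptor motif was visible in the promoters of Rarb and Cyp26a1, which are among the known targets of the signal. A search on both strands used a pair of 6-base core motifs in the same orientation, 5 bases apart (DR5), where each core could be AGGTCA or AGTTCA or GGGTCA or GGTTCA. It was run on RefSeq promoter windows of 300 bases (GRCm38.p6, 250 bases before and 50 after the start), which were given for 7 of the 9 genes in 11 windows. DR5 was found in 32 of 32851 windows of all genes, or 0.0974%, and among the windows of the 9 genes in those of Rarb and Cyp26a1. Pairs of the same cores 1 or 2 bases apart were in 0.222% and 0.268% of all windows and in none of the 11. The 250 bases before each start are shown, with the DR5 in capitals, because these genes are set side by side below. The DR5 of Rarb runs from base -53 to -37 on the strand of the gene, and that of Cyp26a1 from -32 to -16 on the opposite strand. The Rarb stretch is chr14:16575477-16575726 (minus strand) and the Cyp26a1 stretch is chr19:37697558-37697807 (plus strand).
Rarb: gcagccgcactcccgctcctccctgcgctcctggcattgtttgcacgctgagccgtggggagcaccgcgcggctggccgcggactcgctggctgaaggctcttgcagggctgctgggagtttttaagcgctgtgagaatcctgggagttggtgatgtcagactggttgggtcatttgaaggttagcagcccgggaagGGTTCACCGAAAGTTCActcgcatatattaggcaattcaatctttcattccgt
Cyp26a1: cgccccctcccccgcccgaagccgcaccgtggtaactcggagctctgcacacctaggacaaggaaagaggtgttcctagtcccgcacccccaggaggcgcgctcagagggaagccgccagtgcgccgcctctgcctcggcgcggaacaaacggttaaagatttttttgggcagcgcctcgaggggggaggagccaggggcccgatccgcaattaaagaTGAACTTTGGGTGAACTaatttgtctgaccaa
The letters AGGTGTGA, the core bound by T-box factors, were in 1.28% of all windows and in 1 of the 11, a window of Aldh1a1. A match is a description of the sequence and not evidence of binding.

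The share of gene spots that the scanner software marked as well above background ran between 72.1% and 81.6% over the 4 RNAs. All 10 spots of the 9 genes were so marked in all 4 RNAs, and 0 were outliers or saturated. Levels below are processed signals, the software's background-subtracted and dye-corrected brightness, and log2 ratios are cDKO over control after loess normalization of each array. Precision is limited by having 2 arrays. The male array was the brighter, with signals summed over all genes of 135057000 in cDKO and 134091000 in control RNA. On the female array the sums were 103521000 and 101012000. A signal of one array set against a signal of the other thus also carries this difference in brightness. Transcripts of the floxed genes and of the Cre-carrying gene were higher in cDKO RNA by limma, with log2 ratios of 0.74 for Tbx2 (adjusted p = 0.0273), 0.66 for Tbx3 (adjusted p = 0.0305) and 0.81 for Tbx18 (adjusted p = 0.00778). The place of the Tbx2 and Tbx3 probes relative to the floxed exons was not determined, so these values do not check the genotype. The Y-linked gene Ddx3y, which female RNA should lack, had a signal of 359.6 in the female cDKO RNA, against 4.46 in the female control RNA, where it was not well above background. The 10 liver markers had a median log2 ratio of -0.47 in males and 2.70 in females, with Alb at a signal of 29720 in the female cDKO RNA and 4711 in the female control RNA. The female cDKO RNA thus stood apart, and the results below give the value in males alone beside the one over both arrays. Of markers of the labelled tissue, all 14 urothelium and all 12 smooth muscle markers were well above background in all 4 RNAs.

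Transcripts of the retinol transporter Stra6 and of 1 of the 3 enzymes of the last step of synthesis, Aldh1a3, were higher in cDKO ureters. Stra6 rose 3.15-fold on average, with 3.93-fold in males and 2.52-fold in females, and Aldh1a3 rose 2.41-fold in males and 1.66-fold in females, while the transcripts of the binding proteins, the other dehydrogenases, the receptor and the degrading enzymes did not pass the test. Across the 9 genes, 2 were called higher and 0 lower (limma, Benjamini-Hochberg adjusted p under 0.05 over all kept probes). Over all genes tested, 4.45% were called, 2.18% higher and 2.27% lower. The median log2 ratio of the 9 genes was 0.41, with 0.50 in males and 0.18 in females, against 0.0045 for all genes. Both arrays had a ratio above 0 for 6 of the 9 genes, or 66.7%, against 31.7% of all genes. Below 0 on both were 1 of the 9 genes, Crabp1, and 28% of all genes. In bulk tissue, more or fewer cells of a type and more or less RNA per cell cannot be told apart.

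**Figure D1:**
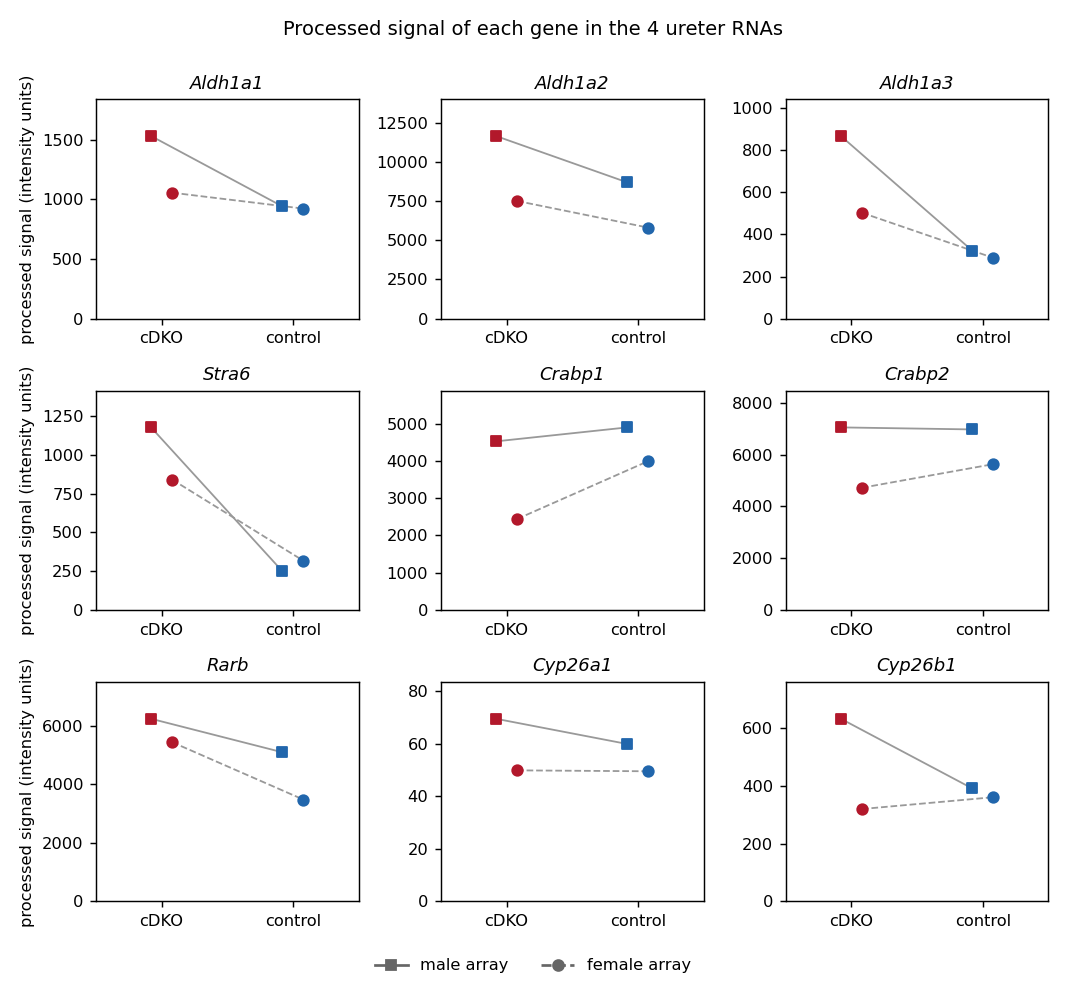
Processed signal (intensity units, linear axis from 0) of each of the 9 genes in cDKO and control RNA, with squares for the male array, circles for the female array and a line joining the RNAs of 1 array. For Stra6 the signals are 1176 and 840.4 in cDKO RNA against 249.3 and 317 in control RNA. On each array the cDKO point lies well above the control point for Stra6 and Aldh1a3. The points of Crabp2 and Cyp26a1 lie closer together within an array.

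Stra6 encodes the membrane receptor that takes up retinol from its plasma carrier. Its probe (chr9:58001701-58001760 on mm9, the build of all probe coordinates here) had processed signals of 1176 in male and 840.4 in female cDKO RNA, against 249.3 in male and 317 in female control RNA. Within each array the cDKO signal was the higher. The log2 ratio was 1.97 in males and 1.33 in females, with a mean of 1.65 ± 0.45 (SD, n = 2; 95% interval 1.27 to 2.04; adjusted p = 3.18e-05 by limma). Stra6 was the 1 member at least 2-fold higher on both arrays, a size that 0.41% of all genes reached, and its mean ratio lay above that of 99.8% of genes. It kept the call with Agilent's own processed signals (adjusted p = 0.0432) and under median centring, and lost it with the deposited value table (adjusted p = 0.301), where no gene was called.

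The 3 ALDH1A enzymes carry out the same reaction, and each had a ratio above 0 on both arrays. Aldh1a3 (probe at chr7:73535785-73535844) had signals of 867.4 in male and 502.9 in female cDKO RNA. The control signals were 322.9 in male and 288.7 in female RNA, so cDKO was higher within each array. Its log2 ratio was 1.27 in males and 0.73 in females, with a mean of 1.00 ± 0.38 (SD, n = 2; 95% interval 0.62 to 1.38; adjusted p = 0.00291 by limma). That call was lost with the processed signals (adjusted p = 0.116) and under median centring (adjusted p = 0.0674), although the ratio itself was then slightly larger, at 1.11 and 1.12. Aldh1a3 reached 2-fold on the male array and not on the female array.

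Aldh1a2, the main retinoic acid enzyme of embryonic mesenchyme, did not pass. Its probe (chr9:71143931-71143990) read 11656 in male and 7511 in female cDKO RNA, against 8694 in male and 5807 in female control RNA. Within each array cDKO was higher. Across the arrays, which differ in brightness, the female cDKO signal was below the male control signal. The mean log2 ratio was 0.44 ± 0.079 (SD, n = 2; 95% interval 0.095 to 0.79; adjusted p = 0.178 by limma), with 0.50 in males and 0.39 in females. These 95% intervals are not adjusted for the number of genes, so one that leaves out 0 can go with an adjusted p above the threshold.

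Aldh1a1, the dehydrogenase found in many epithelia, had signals of 1531 in male and 1056 in female cDKO RNA, against 940.7 in male and 922.4 in female control RNA (probe at chr19:20717764-20717823). Within each array the cDKO signal was the higher, by a wide margin on the male array and a narrow one on the female array. The mean log2 ratio was 0.41 ± 0.33 (SD, n = 2; adjusted p = 0.253 by limma), made up of 0.65 in males and 0.18 in females. Its close relative Aldh1a7, named after its value was seen, was at 0.017, with -0.016 in males (adjusted p = 0.983). Such relatives can share signal between probes, so the identity of the Aldh1a1 signal is uncertain to that extent.

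**Figure D2:**
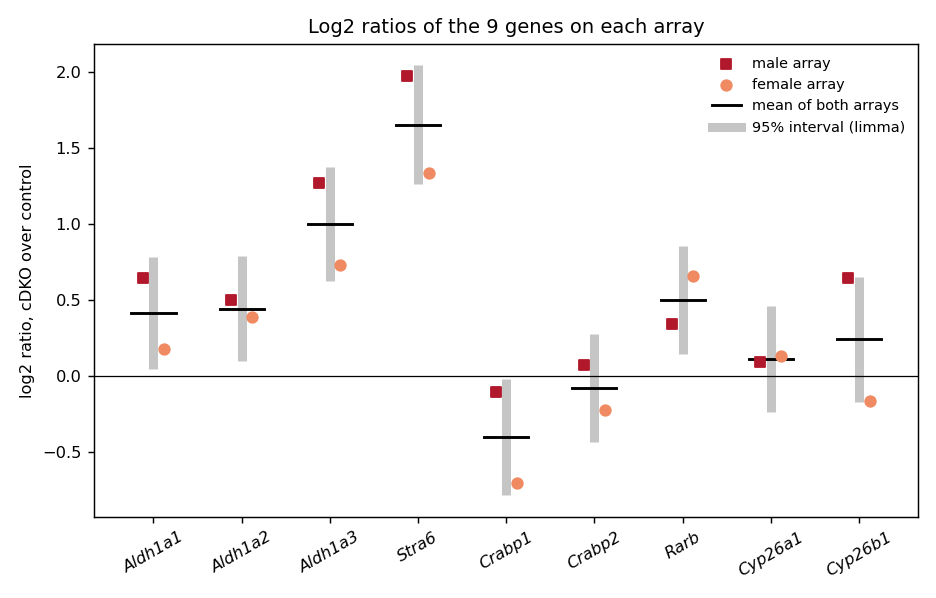
Log2 ratio of cDKO over control (vertical axis) for the 9 genes, with squares for the male array, circles for the female array, a black bar for the mean of both and a grey band for the 95% interval from limma. Stra6 at 1.65 and Aldh1a3 at 1.00 stand highest, and the arrays lie on opposite sides of 0 for Cyp26b1 and Crabp2.

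Crabp1 and Crabp2 bind retinoic acid inside the cell; CRABP2 is known to hand it to the receptors. Crabp1 (probe at chr9:54616192-54616251) had signals of 4522 in male and 2439 in female cDKO RNA, against 4896 in male and 3994 in female control RNA. The lower value in cDKO was seen on both arrays, and most of the difference came from the female array. Across the arrays, which differ in brightness, the signals of the groups overlapped. The mean log2 ratio was -0.40 ± 0.42 (SD, n = 2; 95% interval -0.79 to -0.019; adjusted p = 0.292 by limma), with -0.10 in males and -0.70 in females. Crabp2 (probe at chr3:87757207-87757266) had signals of 7047 in male and 4717 in female cDKO RNA, against 6969 in male and 5629 in female control RNA. Its arrays had opposite signs, 0.069 in males and -0.23 in females, and its mean of -0.079 had a 95% interval of -0.43 to 0.28. Under median centring that mean was 0.12, so no direction can be given for Crabp2.

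Rarb, the receptor that retinoic acid itself induces, was read by 2 probes 1281 bases apart on chromosome 14. The brighter one (chr14:17263367-17263426) had signals of 6237 in male and 5438 in female cDKO RNA, against 5092 in male and 3476 in female control RNA. Within each array the cDKO signal was above the control signal. Its mean log2 ratio was 0.50 ± 0.22 (SD, n = 2; 95% interval 0.14 to 0.86; adjusted p = 0.130 by limma), with 0.34 in males and 0.66 in females. The other probe (chr14:17264648-17264707) gave 0.31 and 0.57, with a mean of 0.44 ± 0.18 (SD, n = 2; adjusted p = 0.187 by limma). Rarb passed the threshold in 1 of the 10 alternatives with a test, an intensity trend in the variance (adjusted p = 0.0395 by limma). Of these 10, a scaling of brightness between arrays (Aquantile) leaves ratios as they are, so its result was fixed in advance.

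CYP26 enzymes clear retinoic acid, and Cyp26a1 is the family member that the signal induces most directly. The Cyp26a1 probe (chr19:37775566-37775625) was dim, at 3.40 to 5.65 times the local background, with signals of 69.5 in male and 49.8 in female cDKO RNA and 59.8 in male and 49.5 in female control RNA. The groups overlapped. The mean log2 ratio was 0.11 ± 0.028, with 0.09 in males and 0.13 in females (SD, n = 2; 95% interval -0.24 to 0.46; adjusted p = 0.850 by limma). Of the 2 genes whose promoters hold the DR5 shown above, Rarb was thus at 0.50 and Cyp26a1 at 0.11, and neither was called. Among all 31 genes with such a window 11 were measured, with a median log2 ratio of 0.078 (0.079 in males, 0.12 in females). Called higher were 2 of them, Ppbp and Prokr2, which were named after their values were seen, against 2.18% of all genes. The mean ratios of the 11 ran from -0.48 to 2.37, and 1 gene was at least 2-fold higher on both arrays. Above 0 on both arrays were 5 of the 11, and below 0 on both were 3, against 31.7% and 28% of all genes. Whether the motif had a part in these ratios was not tested.

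Cyp26b1, the retinoic acid hydroxylase known from mesenchyme, behaved differently on the arrays. Its probe (chr6:84521952-84522011) had signals of 631.7 in male and 319.5 in female cDKO RNA, against 390.7 in male and 360.3 in female control RNA. The cDKO signal was above the control signal on the male array and below it on the female array. The log2 ratio was 0.65 in males and -0.16 in females, with a mean of 0.24 ± 0.57 (SD, n = 2; 95% interval -0.17 to 0.65; adjusted p = 0.637 by limma).

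Beyond the 9 genes, 50 other genes of retinoid handling, retinoid receptors, their coregulators and known targets were listed, of which 43 were measured. Among them 1 was called higher and 1 lower, with a median log2 ratio of 0.078, or 0.027 in males and 0.069 in females. Over all genes 4.45% were called, so these 2 of 43 lie near the share of all genes. Ret, a receptor tyrosine kinase of the ureteric bud that retinoic acid signalling is known to maintain, had signals of 130.1 and 87.5 in cDKO RNA against 48.7 and 31.2 in control RNA, male value first. The log2 ratio was 0.76 in males and 0.95 in females. Its mean was 0.86 ± 0.14 (SD, n = 2, with adjusted p = 0.00535 by limma). The Ret signals are dim, and the mean was 1.45 with the processed signals, which carry no offset (adjusted p = 0.0284). The call was lost under median centring (adjusted p = 0.437) and with the deposited value table (adjusted p = 0.187).

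Lrat, the enzyme that stores retinol as retinyl ester, was called lower, but it entered the test through control RNA alone, where it is the brighter, so its call is a description only. Its signals were low, 16.3 in male and 24.5 in female cDKO RNA, against 60.3 in male and 121.3 in female control RNA. It was well above background in 1 of the 2 cDKO RNAs, the female one, and in both control RNAs. The log2 ratio was -0.68 in males and -1.61 in females (mean -1.15 ± 0.66, SD, n = 2; adjusted p = 0.00285 by limma). The offset pulls the ratios of both arrays toward 0: the mean was -1.40 with an offset of 0 and -2.10 with the processed signals. Lrat left the test when both channels had to be well above background, and lost its call with the deposited value table (adjusted p = 0.384).

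Of 19 listed enzymes that interconvert retinol, its esters and retinal, 16 were measured, 0 were called higher and 1, Lrat, was called lower. Their median log2 ratio was -0.11, with -0.12 in males and -0.11 in females. Below 0 on both arrays were 9 of 16, against 28% of all genes. After Lrat the lowest were the alcohol dehydrogenase Adh7 at -0.41, with -0.32 in males (adjusted p = 0.223), and the retinol dehydrogenase Rdh13 at -0.29, with -0.35 in males (adjusted p = 0.433). None of the 6 retinoid receptors measured, Rarb included, was called. Above 0 on both arrays were 5 of the 6, against 31.7% of all genes. The median of the 6 was 0.47, or 0.60 in males and 0.24 in females. Rarg had the largest ratio among them, at 0.59 ± 0.17 (SD, n = 2; adjusted p = 0.061 by limma), with 0.71 in males and 0.47 in females. It passed the threshold in 4 of the 10 alternatives with a test, and Rara in 1, the intensity trend. Of the 6 coregulators 0 were called, with a median of 0.12, or 0.17 in males and 0.20 in females. Of 14 listed targets 12 were measured, with Ret called and a median of 0.19, or 0.088 in males and 0.25 in females. After Ret and Rarg the highest of these other genes was the homeobox gene Hoxa5, at 0.58, with 0.67 in males (adjusted p = 0.0624 by limma), which passed in 3 of the 10 alternatives. Cyp26c1, the third CYP26 enzyme, was not well above background in any of the 4 RNAs.

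**Figure D3:**
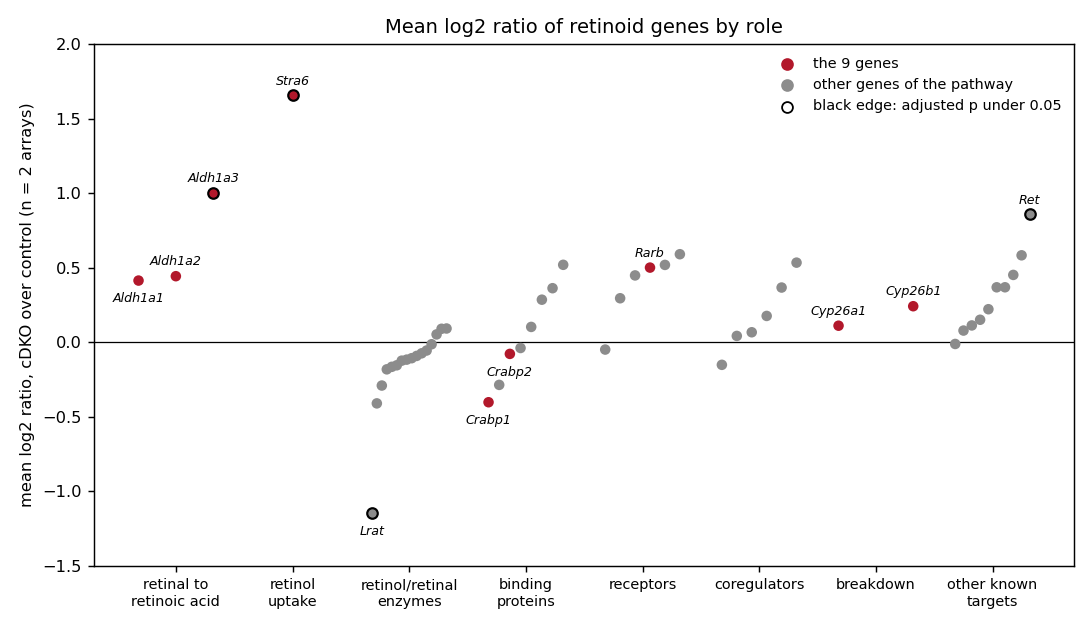
Mean log2 ratio of cDKO over control (vertical axis, n = 2 arrays) of the measured retinoid genes, in columns by role, red for the 9 genes and grey for other genes of the pathway, with a black edge where the adjusted p was under 0.05. The called genes are Stra6, Aldh1a3 and Ret above 0 and Lrat at -1.15 below 0, and of the other retinol and retinal enzymes Adh7 is lowest at -0.41.

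Markers of several cell types moved in the same RNAs, in which 2.18% of all genes were called higher and 2.27% lower. Of 12 measured smooth muscle markers, 11 were called lower, with a median log2 ratio of -2.41 (-2.34 in males, -2.38 in females) and summed signals of 123937 and 74824 in male and female cDKO RNA, against 708228 and 417772 in male and female control RNA. Of 10 fibroblast and adventitia markers, 7 were called higher, with a median of 0.76 (0.75 in males, 0.78 in females) and sums of 608869 and 520611 in male and female cDKO RNA, against 315244 and 276806 in male and female control RNA. Of 12 measured kidney nephron markers, 9 were called higher, with sums of 18691 and 10527 in male and female cDKO RNA against 9942 and 8709 in male and female control RNA. Of the other listed nephron markers, Nphs1 was well above background in 2 of the 4 RNAs, and Slc12a1 and Umod in 1 each. The nephron median was 1.22, with 1.26 in males and 0.70 in females. Of 8 collecting duct markers, 3 were called higher, with a median of 0.52 (0.73 in males, 0.32 in females), and Ret is one of that list as well as of the targets. Of 6 kidney stroma markers 1, Ren1, was called lower, with a median of 0.26 (0.43 in males, 0.17 in females). Called higher were 3 of 7 measured genital duct markers (Emx2, Hoxa11 and Hoxa13), with a median of 0.091 (0.083 in males, 0.24 in females). Of 9 endothelium markers 2, Cdh5 and Plvap, were called higher, with a median of 0.17 (0.33 in males, 0.25 in females). The 2 kept probes of Plvap differed. The brighter one was at 0.97, with 1.18 in males, and the other at 0.062, with 0.066 in males (adjusted p = 0.929 by limma). Of 6 measured red blood cell markers 1, Slc4a1, was called higher, with a median of 0.47 (0.53 in males, 0.40 in females). No gene of the other lists was called. Their medians were 0.18 for the 14 urothelium markers (0.31 in males, 0.080 in females), 0.15 for 8 Schwann cell and neuron markers (0.52 in males, 0.012 in females) and -0.11 for 8 macrophage markers (0.029 in males, -0.27 in females). Upk1b, Upk3b and Krt19 are on both the urothelium and the mesothelium list. The 7 measured mesothelium markers had opposite medians, 0.43 in males and -0.26 in females. The liver medians also had opposite signs, and its 10 genes spread widely between the arrays. The part of these cell types in the ratios of the 9 genes was not tested.

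**Figure D4:**
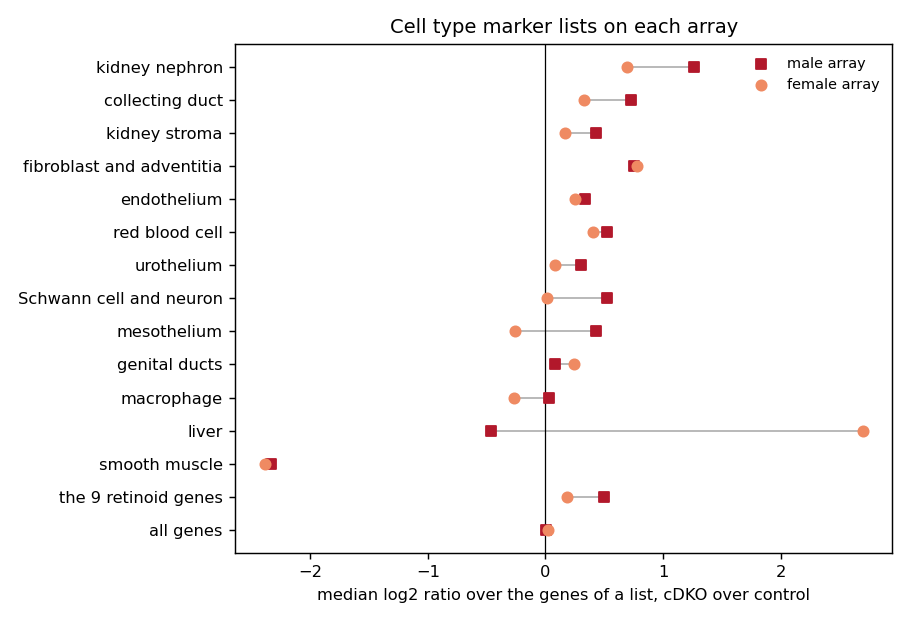
Median log2 ratio of cDKO over control (horizontal axis) over the measured genes of each cell type list, the 9 retinoid genes and all genes, with squares for the male and circles for the female array. Smooth muscle is at -2.34 in males and -2.38 in females, the liver list is at -0.47 in males and 2.70 in females, and the 9 retinoid genes are at 0.50 and 0.18.

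**Figure D5:**
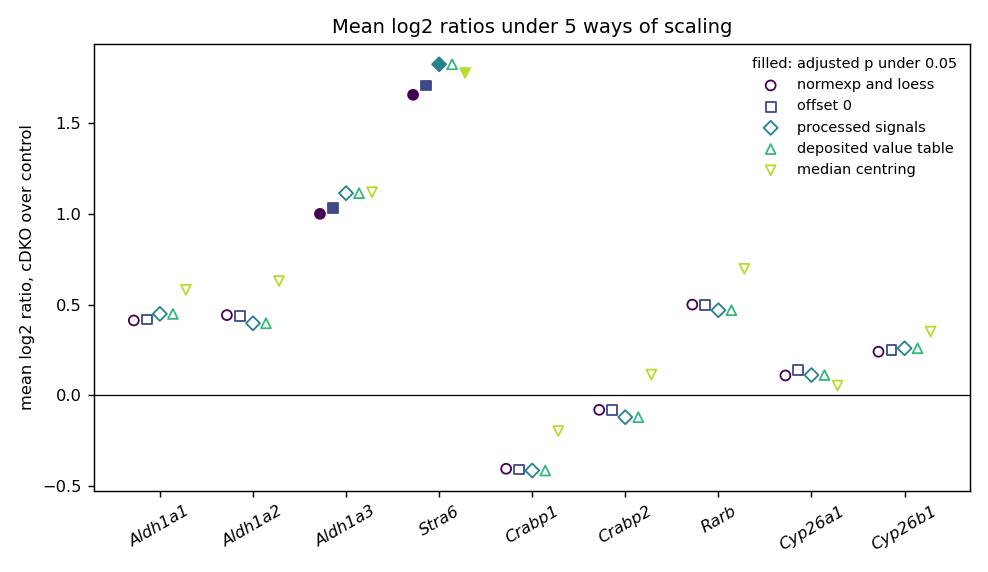
Mean log2 ratio of cDKO over control (vertical axis) of the 9 genes under 5 ways of scaling, with filled symbols where the adjusted p was under 0.05. Stra6 stays between 1.65 and 1.82 and is called in 4 of the 5, Aldh1a3 stays between 1.00 and 1.12 and is called in 2 of the 5, and Crabp2 changes sign under median centring.

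Both sizes and calls depended on the scaling, as the plot of the 9 genes under 5 ways of scaling shows. Median centring, which leaves the intensity-dependent dye effect in place, raised the median of the 9 genes to 0.58, against 0.41 with loess. The median over all genes moved by 0.061 log2 units at the same time. By array it was 0.22 in males and -0.024 in females, against 0.0038 and 0.018 with loess. The shift over all genes under median centring was thus larger on the male array alone. Under it Crabp1 was at -0.20 against -0.40 with loess, Cyp26a1 at 0.055 against 0.11, Aldh1a1 at 0.58 against 0.41 and Aldh1a2 at 0.63 against 0.44, none of them called.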

How the data were processed

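Total RNA of ureters was measured on 2 2-colour arrays. Agilent Feature Extraction 10.7.3.1 read the scans, per the file headers, and wrote mean spot and median local background intensity per channel, and a processed signal intensity that is background-subtracted and dye-normalized. Other deposited columns are 0 or 1 flags for spots. The deposited value table is a score of unstated scale with a median of 1 on both arrays, and it was read as a signed fold change, as an alternative only.

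In limma 3.58.1 (R 4.3.3) normexp with an offset of 50 removed the background of the mean intensities, and loess, with control and outlier spots at weight 0, removed the dye trend of each array. Probes well above background in cDKO RNA on both arrays, or in control RNA on both, were kept (29274 of 39429). A gene was read by its brightest kept probe, under the RefSeq symbol of its accession for 26412 probes and the file's name otherwise. Log2 ratios of cDKO over control were tested against 0 with lmFit and eBayes (1 residual and 13.9 prior degrees of freedom, two-sided, Benjamini-Hochberg over the kept probes). The fit was also run on data simulated from its own variance estimates, which does not check its assumptions for these arrays. Named other genes are those called and the 3 highest and 3 lowest; exceptions are marked, and 1 gene of the pathway is not reported here. Probe coordinates are on mm9, and exon or UTR was not assigned. The 9 genes and the lists were chosen with earlier results of these data known. Alternatives were other background corrections, scalings, filters and variance models, the mean of a gene's probes, and each array alone.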

Additional observations from a re-analysis of the deposited data

Results flagged for a closer look

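Cyp26b1 and Crabp2 had opposite signs on the male and the female array. The log2 ratio of cDKO over control was 0.65 in males and -0.16 in females for Cyp26b1, and 0.069 and -0.23 for Crabp2. With 1 array per sex the difference was not tested. Of all 23419 genes, 9440, or 40.3%, had opposite signs on the arrays.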

How the results depend on the processing

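Calls were fewer with the processed signals (343 genes, 1 of them a member) and under median centring (320 genes, 1 member), and the member left was Stra6. With the deposited value table limma called 0 genes, 0 members and 0 of the other retinoid genes, while 2434 genes had an unadjusted p under 0.05. An intensity trend in the variance called 1599 genes, against 1042. Of the other retinoid genes 2 were called, against 1 under median centring (Lrat; Ret lost its call), 3 where both channels had to be well above background, 4 with the mean of a gene's probes, 6 with the intensity trend and 4 with robust eBayes. The mean log2 ratio of Crabp2 turned to 0.12 under median centring and to 0.069 without replicate 2 (the female array), against -0.23 without replicate 1 (the male array). That of Cyp26b1 turned to -0.16 without replicate 1, against 0.65 without replicate 2. On 1 array alone, 1 to 2 members were at least 2-fold changed: Stra6 on the female array, Stra6 and Aldh1a3 on the male array. The cause of these changes was not tested. Aquantile scaling leaves ratios as they are and so could not change a call, although it is counted among the alternatives. Each ratio already pairs the 2 genotypes within an array, and no further pairing was possible with 1 group of ratios. Precision is limited by 2 arrays, and for Cyp26a1, Lrat and Ret also by signals near background.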
